A study of Rattus norvegicus with 6 samples.

Results

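Compact spliced circles of the rat thalamus are described here: circular RNAs (circRNAs) with a deposited sequence of at least 250 and below 1000 nt that is shorter than the genomic stretch it comes from, where this span is below 2000 nt. The rule uses length and position only, and 2252 of the 32445 circRNAs met it (6.94%). The study compared 3 rats whose temporomandibular joints were injected on both sides with CFA, 50 µL each time (complete Freund's adjuvant, an oil and mycobacteria mixture that provokes lasting inflammation) with 3 rats given 50 µL of saline in the same way. Injections were given 2 times per week and the thalamus, which relays sensory input including that from the face to the cortex, was taken after 14 days. Strain, age and sex were not given in the labels, and all animals were otherwise described alike. The libraries held 573696 to 1176178 circRNA reads.

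A circRNA forms when the splicing machinery joins the end of an exon back to the start of the same or an earlier exon, which closes the RNA into a ring without a cap or a poly(A) tail. Rings of several exons usually lose the introns between them, so the ring is shorter than its stretch of the genome. In the brain, circRNAs are known to be abundant in neurons and at synapses, and long introns with repeats that pair with each other are a known aid to their formation. A compact circle leaves out little intron between its own ends. The flanking introns lie outside it and were not analysed here.

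The reads that count toward a circle cross its joint, where the last bases of the ring meet the first. These deposited 58 nt joint sequences, read 5′ to 3′ in the direction of the RNA, identify the 4 most abundant compact circles and the 2 that differed between the groups. Capitals mark the 4 bases on either side of the joint.
chr11:34612627-34614139 (+): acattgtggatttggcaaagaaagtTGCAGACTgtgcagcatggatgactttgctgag
chr18:29633808-29634585 (+): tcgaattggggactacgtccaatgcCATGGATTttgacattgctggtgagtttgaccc
chr3:3413579-3414759 (-): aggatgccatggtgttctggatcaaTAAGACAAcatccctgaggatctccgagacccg
chr6:72537858-72538290 (-): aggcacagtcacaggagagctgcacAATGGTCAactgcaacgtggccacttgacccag
chr13:83256334-83257043 (-): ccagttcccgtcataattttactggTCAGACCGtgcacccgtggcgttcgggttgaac
chr7:93434909-93436345 (-): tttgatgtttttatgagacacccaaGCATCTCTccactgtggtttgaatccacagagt
The first 4 lines are the abundant circles in order of level, and the last 2 the circles that were lower in CFA. Positions are those of the deposited headers, of a genome build not given in the sources used here. Identifiers carry no gene names there.

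The first of these, the leading compact circle, held 7.07% of the reads of its class, and its 437 nt come from a span of 1513 nt. Among compact circles with reads in all 6 libraries, the one with the shortest span was chr9:43004144-43004499 on the minus strand. It has 277 nt from a span of 356 nt, so that only 79 nt are left out, and it is shown whole because it fits in so little sequence. Capitals are the first and last 4 bases, which meet at the joint.
chr9:43004144-43004499 (-): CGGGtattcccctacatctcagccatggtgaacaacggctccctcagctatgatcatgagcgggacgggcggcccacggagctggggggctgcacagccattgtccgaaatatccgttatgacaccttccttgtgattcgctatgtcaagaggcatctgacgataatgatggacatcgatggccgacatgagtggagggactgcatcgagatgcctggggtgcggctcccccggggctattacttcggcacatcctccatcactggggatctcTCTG

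Compact circles were somewhat shorter than their wider counterparts and left out very different amounts of sequence. Their median length was 361 nt (quartiles 313 and 415 nt) over a median span of 1257.5 nt. The sequence left out, span minus length, had a median of 862.5 nt and ran from 67 to 1746 nt, spread almost evenly over this range. Fewer than 100 nt were left out in 75 circles. Since the deposited files give no exon positions, whether the missing bases form 1 intron or several cannot be told. Wide circles, the 24196 mid-length spliced circles that span 2 kb to below 50 kb, had a median length of 398 nt and a median span of 12030.5 nt. Both strands gave compact circles in near equal number, 1127 on the plus and 1125 on the minus strand.

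**Figure D1:**
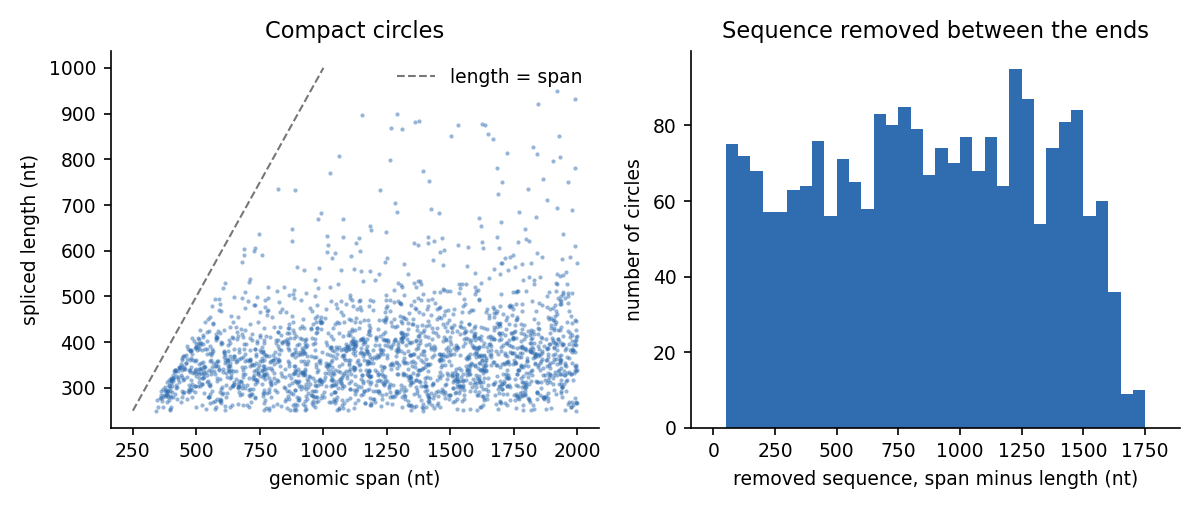
Left, spliced length against genomic span (both in nt) of each of the 2252 compact circles, with the dashed line where both are equal. Right, the number of circles by the sequence left out (span minus length, bins of 50 nt). Circles fill the whole range of spans, and the sequence left out starts at 67 nt.

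On both sides of the span threshold the median circle looked much alike, while the mean did not. The 100 compact circles nearest to it, with spans of 1936 to 1999 nt, had a median of 3.63 RPM (reads per 1000000 circRNA reads of a library, averaged over the 6 libraries). The 100 wide circles nearest to it, with spans of 2002 to 2073 nt, had a median of 3.78 RPM. Reads per circle, summed over the libraries, were 76.2 on average in the former and 173 in the latter, and median GC content was 49.8% and 47.8%. A reading frame without a stop codon ran through 70.0% of the former and 65.0% of the latter.

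The class was spread unevenly over the chromosomes. Compact circles made up 10.7% of the circles of chromosome 12, 10.5% of those of chromosome 10 and 9.81% of those of chromosome 19. The lowest shares among the numbered chromosomes were 4.55% on chromosome 17, 4.81% on chromosome 14 and 4.89% on chromosome 6. On chromosome X the share was 8.01% (63 of 787), and on chromosome Y it was 7 of 29 circles. These are counts of all circles in the table and carry no test.

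More often than wide circles, compact circles were the sole circle of their locus, a run of circles that overlap on the same strand. This held for 790 compact circles (35.1%) against 10.7% of wide and 41.6% of the 709 mid-length single-segment circles, whose sequence is as long as their span. The 2252 circles came from 1955 loci, of which 220 held 2 or more of them and the richest held 6, so that not all members are separate sources. Of the 1462 compact circles with company, 400 (27.4%) were the most read circle of their locus, compared with 18.6% of wide circles. At such shared loci the median compact circle took 12.01% of the reads and the median wide circle 6.20%. Locus size enters these shares: a locus with few circles leaves more reads to each.

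Shared ends with wide circles were common. A start was shared with another circle by 36.9% of compact and 57.0% of wide circles, and an end by 34.7% and 57.0%. Of the 1072 compact circles that shared a start or end with at least 1 wide circle, 426 (39.7%) had more reads than the most read wide partner. The median compact circle took 36.3% of the reads of such a pair. A smaller group of 42 compact circles enclosed a single-segment circle with which it shared an end, in 43 pairs. In 37 of these pairs the whole sequence of the segment lay within that of the compact circle, over all pairs the compact circle was longer by a median of 112 nt, and it had more reads than the segment in 12.

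Open reading frames and GC content set compact circles apart from wide ones in description. A frame free of stop codons ran through the whole sequence, in the direction given, in 1535 compact circles (68.2%) and in 50.0% of wide circles. On the reverse strand this was found in 8.97% and 4.42%. Median GC content was 50.4% (quartiles 46.1% and 54.9%) in compact and 47.6% (44.1% and 51.2%) in wide circles. Mid-length single-segment circles had nearly the GC content of compact ones, 50.2% (45.9% and 54.8%), while 49.6% of them had an open frame. Both length and GC content bear on how often a stop codon appears, so circles of 300 to below 400 nt were also set side by side within ranges of GC. Below 45% GC, 165 of 229 compact circles (72.1%) and 44.6% of wide circles were open. From 55% GC upward the shares were 78.0% and 63.1%, and both ranges between gave a higher share in compact circles as well (67.0% against 48.7%, and 71.3% against 56.2%). In the longest circles, of 500 to below 1000 nt, the shares were close at 50.2% and 49.9%.

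**Figure D2:**
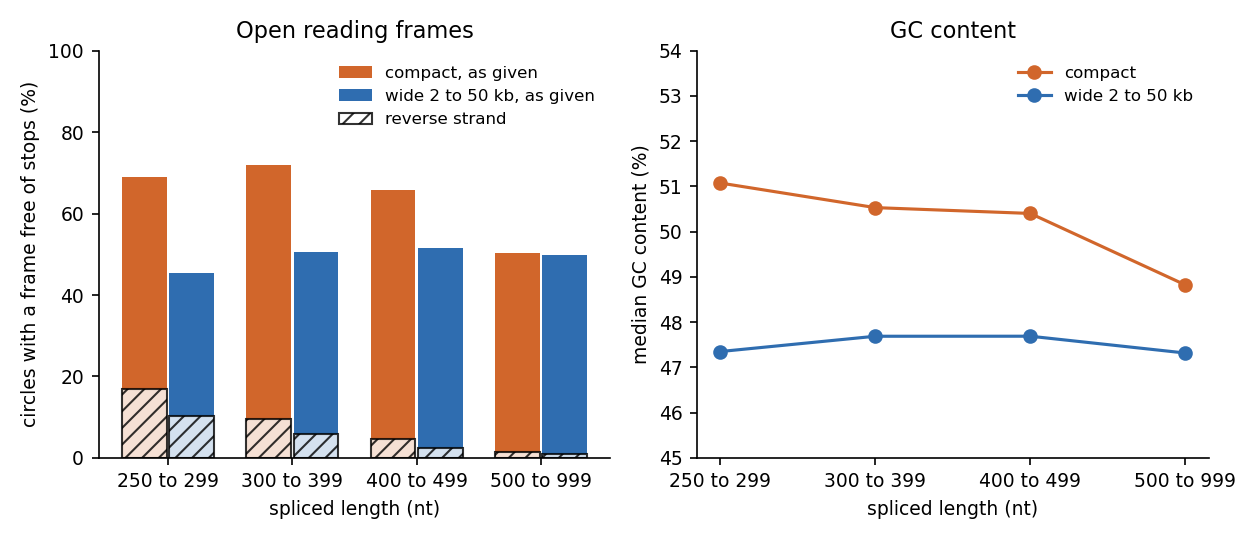
Left, the share of circles (%) with a frame free of stop codons by spliced length (nt), in the direction given (filled bars) and on the reverse strand (hatched bars). Right, median GC content (%) for the same length classes, with an axis that starts at 45. Compact circles stand above wide ones below 500 nt in the left plot and in all 4 length classes in the right plot.

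A frame can also run around the ring without end when the length is a multiple of 3. Such an endless frame was found in 601 compact circles (26.7%) and in 18.7% of wide circles, while a length that is a multiple of 3 was found in 36.9% and 34.3%. Exons in animals often end in AG and begin with G, and the ring ends followed this to a like degree in both classes. The last 2 bases were AG in 57.2% of compact and 56.2% of wide circles, and the first base was G in 48.3% and 44.4%. AG joined to G across the joint was present in 27.1% and 24.8%. Whether any such frame is translated was not measured.

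Reads were few for most compact circles and concentrated on a small number. Their median level was 3.42 RPM, 636 circles were above 10 RPM and 100 were above 100 RPM. The 10 most abundant held 21.9% of the reads of the class. Reads in all 6 libraries were listed for 514 compact circles (22.8%), which held 86.0% of the class's reads, and 781 (34.7%) were listed in 1 library alone. For wide circles these shares were 27.2% and 27.1%. Longer compact circles were more abundant, with median levels of 2.05 RPM at 250 to below 300 nt, 3.03 at 300 to below 400 nt, 4.24 at 400 to below 500 nt and 10.1 at 500 to below 1000 nt. Between circles that left out fewer than 100 nt (4.38 RPM) and those that left out 1200 nt or more (3.04 RPM) the medians lay closer together. Levels that are high in the other libraries were at times listed at 0: where the median of the other 5 was at least 20 RPM, 47 of 2238 values of compact circles (2.10%) and 1.93% of those of wide circles were 0.

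Taken as a class, compact circles had fewer reads each than wide circles. The mean number of reads per compact circle was 14.9, 15.0 and 19.7 in CFA replicates 1 to 3 and 13.4, 24.6 and 20.1 in saline replicates 1 to 3. Within a library this was 0.694 to 0.777 times the mean of wide circles, lower in 6 of 6 libraries (exact two-sided sign-flip permutation test over libraries, p = 0.0312, the smallest that 6 libraries allow and the same after Benjamini-Hochberg adjustment over 2 measures). Compact circles were also listed with reads less often, with a mean difference (compact minus wide) of -5.65 percentage points and the same sign in 6 of 6 libraries (exact two-sided sign-flip permutation test, p = 0.0312, adjusted p = 0.0312). Both classes include circles that overlap at the same loci.

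Below 500 nt this order of the means turned around when circles of like length were compared, a split chosen after the data were seen. Only at 300 to below 400 nt did this also hold without the 10 most abundant circles of each class. At 250 to below 300 nt, 398 compact circles had 1.40 times the reads per circle of 3201 wide ones (range over libraries 1.16 to 1.58). The factor was 1.27 at 300 to below 400 nt (1.19 to 1.34) and 1.29 at 400 to below 500 nt (1.18 to 1.37). At 500 to below 1000 nt the 201 compact circles had 0.530 times the reads of wide ones (0.488 to 0.596). Each of these 4 differences had the same sign in 6 of 6 libraries (exact two-sided sign-flip permutation test, p = 0.0312 each, adjusted p = 0.0312 over the 4). Median levels, compact against wide, were 2.05 and 1.99 RPM at 250 to below 300 nt. At 300 to below 400 nt they were 3.03 and 2.91 RPM. At 400 to below 500 nt the compact median was the lower, at 4.24 against 5.67 RPM, as at 500 to below 1000 nt (10.1 against 18.2 RPM). The sign-flip p-values here and above measure agreement between libraries over the same circles and leave out the spread between circles. Taking out 10 circles removes a larger share of compact circles (10 of 398 against 10 of 3201 at 250 to below 300 nt). That unequal cut tends to lower the factor, so it does not settle whether a few circles carried these differences. Without the 10 most abundant circles of each class the factor was 0.953 at 250 to below 300 nt (higher in 3 of 6 libraries) and 0.716 at 400 to below 500 nt (lower in 6 of 6). At 400 to below 500 nt it was 1.05 without the leading compact circle alone. A split by locus, for circles of any length, was also chosen after the data were seen. There the factor was 1.19 among circles alone at their locus and 0.810 among circles that share it (exact two-sided sign-flip permutation test, unadjusted p = 0.0312 for each). At 300 to below 400 nt it stayed above 1 without the top 10, at 1.10 (1.05 to 1.15), and at 500 to below 1000 nt it was 0.360. In the share of circles listed with reads, none of the 4 length classes gave a difference past the threshold after adjustment. Compact minus wide was 2.03 percentage points at 250 to below 300 nt and 1.69 at 300 to below 400 nt (exact two-sided sign-flip permutation tests, adjusted p = 0.406 and 0.250). It was -4.13 at 400 to below 500 nt and -12.5 at 500 to below 1000 nt, lower in 6 of 6 libraries in both (exact, p = 0.0312 and adjusted p = 0.0625 each). That p is the smallest that 6 libraries allow. With only 2 of the 4 tests at it, their adjusted p was 0.0625 whatever the size of the difference.

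**Figure D3:**
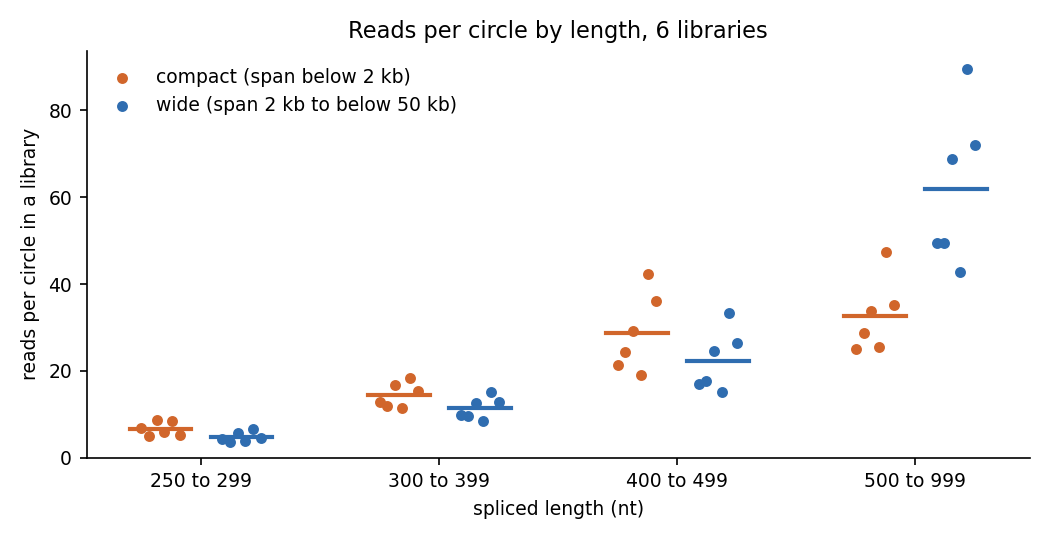
Mean number of reads per circle in each of the 6 libraries (points) and over them (lines), by spliced length in nt, for compact and wide circles. Compact circles lie at or above wide ones below 500 nt, and at 500 to below 1000 nt each library has fewer reads per compact than per wide circle.

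The 8 most abundant compact circles were read in every library, with a highest library 1.07 to 2.84 times the lowest. Each was the most read circle of its locus, and 3 of them were alone there. Steadiest was a 425 nt circle of chromosome 3 (chr3:3413579-3414759, minus strand), with 899, 893 and 908 RPM in the CFA libraries and 870, 901 and 850 RPM in the saline libraries. Its highest library was 1.07 times its lowest, the least spread of the 8, and the groups overlapped.

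The leading 437 nt circle of chromosome 11 had 2038, 3889 and 2634 RPM after CFA and 2315, 4157 and 4991 RPM after saline. It shares its locus with 48 other circles and held 67.5% of the reads there. Its lowest CFA and lowest saline library were both replicate 1, and the groups overlapped, with a log2 fold change (CFA minus saline) of -0.49 ± 0.23 (SE, n = 3 each; Benjamini-Hochberg adjusted p = 0.912 by the quasi-likelihood test of edgeR). A 460 nt circle of chromosome 18 (chr18:29633808-29634585, plus strand), alone at its locus, followed with 1991, 1762 and 1498 RPM after CFA and 1944, 990.5 and 1238 RPM after saline. After the chromosome 3 circle in level came a 344 nt circle of chromosome 6 (chr6:72537858-72538290, minus strand). It leaves out only 89 nt and held 90.4% of the reads of a locus with 19 circles. It had 708, 982 and 1201 RPM after CFA and 753, 810 and 733 RPM after saline. In this circle the CFA libraries were spread more widely than the saline ones, which lay inside their range.

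The other abundant circles overlapped between the groups as well. A 501 nt circle of chromosome 2 (chr2:199880862-199882743, minus strand), with an endless frame, had 789, 1223 and 664 RPM after CFA and 687, 752 and 842 RPM after saline. For the 360 nt circle of chromosome 5 (chr5:128997614-128998323, plus strand), which also has an endless frame, the values were 774, 618 and 633 RPM and 797, 537 and 972 RPM. A 440 nt circle of chromosome 10 (chr10:57634023-57634588, minus strand) ranged most among these 8, with 673, 1130 and 428 RPM after CFA and 397, 775 and 670 RPM after saline, a highest library 2.84 times the lowest. The 380 nt circle of chromosome 17 (chr17:77176705-77178100, plus strand) had 602, 454 and 819 RPM after CFA and 891, 634 and 560 RPM after saline. Over all 8 the log2 fold changes lay between -0.49 and 0.32.

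**Figure D4:**
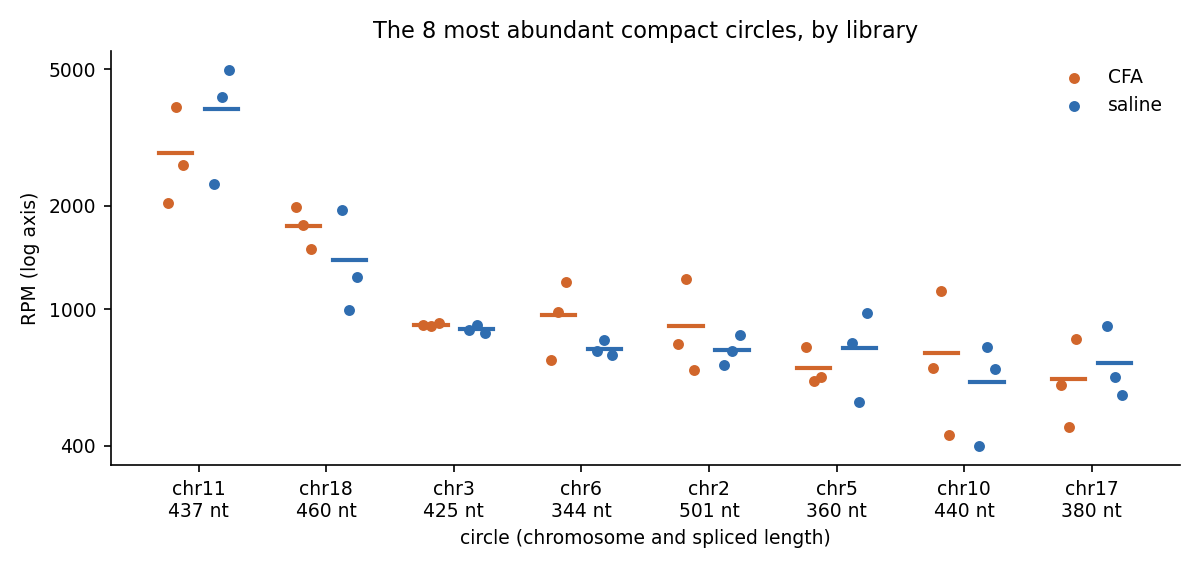
RPM (log axis) of the 8 most abundant compact circles in each CFA and saline library (points), with the mean of each group (lines). The groups overlap in all 8, and the 425 nt circle of chromosome 3 shows the least spread.

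The circles at the ends of the size range were much less abundant. The one with the shortest span, 277 nt from chromosome 9, had 33.5, 46.0 and 55.3 RPM after CFA and 48.8, 47.6 and 17.1 RPM after saline. With 318 nt and only 74 nt left out, chr8:85809358-85809749 on the plus strand left out the least among circles read in all libraries. It had 12.2, 55.3 and 62.0 RPM after CFA and 5.23, 34.9 and 4.27 RPM after saline, overlapping between the groups. Its log2 fold change of 1.41 did not pass and was 3.16 without saline replicate 2. Among circles read in all 6 libraries, the one with the longest span, 573 nt from 1998 nt at chr10:57549452-57551449 on the plus strand, had 3.05, 16.9 and 5.53 RPM after CFA and 34.9, 12.8 and 16.0 RPM after saline. It held 1.07% of the reads of a locus with 34 circles, while the 318 nt circle led its locus of 8 with 34.4%.

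The first question between the groups was whether joint inflammation goes with a different share of compact circles in the thalamus. Compact circles held 5.10%, 5.19% and 4.90% of circRNA reads in the CFA libraries and 5.28%, 4.72% and 4.83% in the saline libraries. The groups overlapped, at 5.06 ± 0.145% and 4.94 ± 0.296% (mean ± SD, n = 3 each; exact permutation test, two-sided, p = 0.6, adjusted p = 0.6 over 2 measures). Of the circRNAs listed in a library, 6.50 ± 0.160% and 6.40 ± 0.178% were compact (n = 3 each; exact permutation test, two-sided, p = 0.5, adjusted p = 0.6). With 3 rats against 3 this test cannot go below 0.1. In bulk tissue, fewer cells of a type and less RNA per cell cannot be told apart.

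Of the 2252 compact circles, 1402 had at least 10 counts over the 6 libraries and were tested, and 2 of these were lower and 0 higher in CFA than in saline rats. They had passed the filter with 98.2% of the reads of the class. Over all 22426 circRNAs tested, 0.125% passed in either direction, 0.0624% toward lower values, so that 2 of 1402 lies close to the background. DESeq2 also called 2 compact circles (0.143% of those tested), 1 of them the same, at a background of 0.0178% (4 circRNAs in all). The other one, chr4:115624887-115626399 on the plus strand, had 75 reads in saline replicate 1 and was listed at 0 in every other library. Without adjustment, 21 compact circles were higher and 20 lower at an edgeR p below 0.05, again near the background of 1.23% and 1.45% of all circRNAs tested (2.68% together). In the same way 56 were higher in each CFA than in each saline library and 43 lower, where the background is 3.21% and 3.42%. The median log2 fold change of the 1402 was 0.07, and that of all circRNAs tested was -0.05. Among the 97 compact circles with reads in all libraries and above 100 RPM, 88 (90.7%) lay within 0.5 of 0 in log2 fold change (median SE 0.36), as did 91.6% of all such circRNAs.

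**Figure D5:**
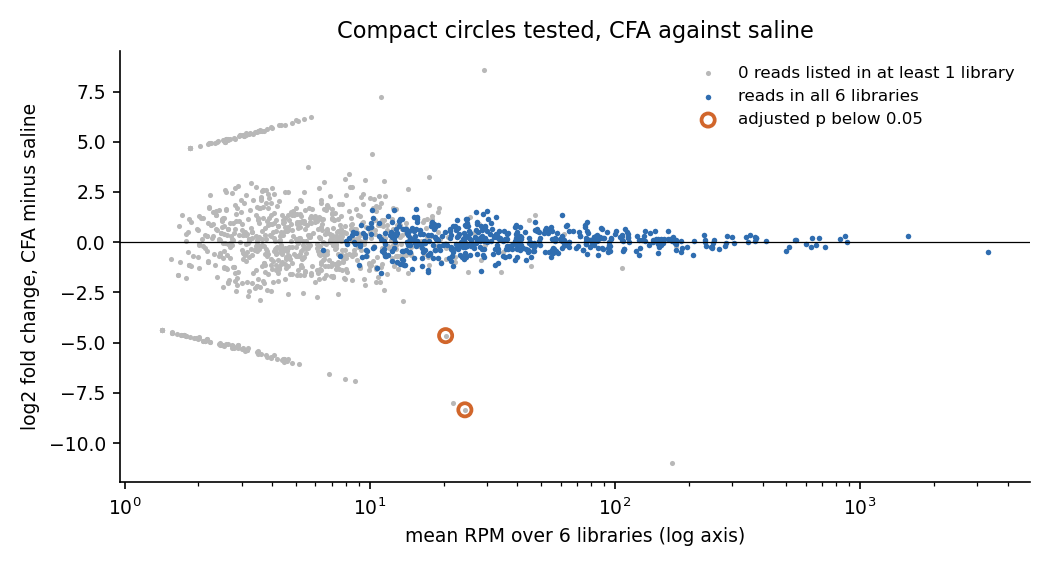
Log2 fold change (CFA minus saline) against mean RPM (log axis) for the 1402 compact circles tested. Grey points lack reads in at least 1 library, blue points have reads in all 6, and rings mark the 2 circles past the threshold. The outer grey bands are circles without reads in 1 whole group, whose fitted fold depends on the prior count.

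The clearer of both decreases was novel_circ_0006907, a 440 nt circle from chr13:83256334-83257043 on the minus strand. Its reads after saline numbered 20, 61 and 56, or 34.9, 51.9 and 59.8 RPM, and the 3 CFA libraries were listed at 0. Taken against a floor of 3 counts over the 3 CFA libraries together, the 137 saline reads made it 37.6-fold lower in CFA. This ratio is not a lower bound: a listed 0 may stand for 1 read in each library, which already uses up the floor. It leaves out counting error and the spread between rats. The decrease passed the threshold (Benjamini-Hochberg adjusted p = 4.92e-08 by the quasi-likelihood test of edgeR). The call held when any 1 library was left out and in DESeq2 (adjusted p = 0.00247). It was lost in edgeR with at least 30 counts (adjusted p = 0.291) and with filterByExpr (adjusted p = 0.457), each with Benjamini-Hochberg adjustment.

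This circle encloses a single-segment circle that shares its end at 83257043. The inner circle starts at 83256698, and its 346 nt are the first 346 of the 440. Its last 200 bases (241 to 440) are shown because both rings differ by the last 94, given in capitals, which lie beyond the 270 nt left out of the span.
chr13:83256334-83257043 (-): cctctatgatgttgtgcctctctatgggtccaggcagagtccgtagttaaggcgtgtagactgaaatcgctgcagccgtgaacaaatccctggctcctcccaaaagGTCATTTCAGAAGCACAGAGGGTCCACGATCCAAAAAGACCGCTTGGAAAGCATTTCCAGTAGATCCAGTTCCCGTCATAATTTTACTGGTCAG
CFA libraries held 168, 114 and 276 reads of the inner circle and saline libraries 87, 126 and 79, or 245 ± 65.9 and 114 ± 34.2 RPM (SD, n = 3 each). Its CFA values in RPM all lay above its saline values, but the log2 fold change of 1.10 did not pass (Benjamini-Hochberg adjusted p = 0.761 by the quasi-likelihood test of edgeR). The third circle of the locus, 505 nt from a span of 15580 nt with the same end, was read 5, 35 and 9 times after CFA and 0, 15 and 9 times after saline.

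The other decrease was novel_circ_0042039, 391 nt from chr7:93434909-93436345 on the minus strand, which is the sole circle of its locus. Reads in the saline libraries numbered 28, 22 and 47, or 48.8, 18.7 and 50.2 RPM, and in the CFA libraries 3, 0 and 0, so the groups did not overlap. Its log2 fold change was -4.65 ± 0.98 (SE, n = 3 each, Benjamini-Hochberg adjusted p = 0.00360 by the quasi-likelihood test of edgeR). Without CFA replicate 1, the one CFA library with reads, the fitted value was -8.04 and depends on the prior count, and over the other libraries left out it reached -4.03 (without CFA replicate 3). Pooled over libraries, saline stood 26.6 times above CFA, with a 95% counting interval of 8.84 to 131 (exact Clopper-Pearson) that leaves out the spread between rats. The call was lost without saline replicate 1 (adjusted p = 0.417) or saline replicate 3 (adjusted p = 0.424), in DESeq2 (adjusted p = 0.607) and in edgeR without robust fitting (adjusted p = 0.0608), with at least 30 counts or with filterByExpr (adjusted p = 1.0 in both), each with Benjamini-Hochberg adjustment. Neither of these 2 circles had a frame free of stop codons over its sequence.

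Circles next in line did not pass. Toward lower values these were a 586 nt circle of chromosome 2 (chr2:25770099-25771957, minus strand), with 0, 26 and 28 reads after saline, and a 632 nt circle of chromosome 6 (chr6:105158304-105159318, minus strand), with 0, 56 and 0. Both were listed at 0 in the 3 CFA libraries (Benjamini-Hochberg adjusted p = 0.875 and 0.912 by the quasi-likelihood test of edgeR). Toward higher values a 270 nt circle of chromosome 11 (chr11:30050144-30051114, minus strand) had 60 reads in CFA replicate 3 alone (adjusted p = 0.150 in the same edgeR test), and passed only without CFA replicate 1 (0.0116) or 2 (0.00312). A 293 nt circle of chromosome 8 (chr8:120442503-120444459, minus strand) was read 0, 59 and 5 times after CFA and 0, 0 and 8 times after saline, so that CFA replicate 2 carried it (adjusted p = 0.672 in edgeR). Without that library its log2 fold change went from 3.25 to -0.068, and it passed only without CFA replicate 1 (edgeR adjusted p = 0.0475) or saline replicate 3 (0.00972).

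More even was a 294 nt circle of chromosome 4 (chr4:77260461-77261417, plus strand) with an endless frame. It had 50.3, 44.5 and 39.8 RPM after CFA and 20.9, 10.2 and 13.9 RPM after saline, and every CFA library lay above every saline library. The log2 fold change of 1.58 ± 0.63 (SE, n = 3 each) did not pass (Benjamini-Hochberg adjusted p = 0.912 by the quasi-likelihood test of edgeR) and was at least 1.38 when any 1 library was left out. A 305 nt circle of chromosome 7 (chr7:130113212-130114242, minus strand) had 77.7, 30.7 and 148 RPM after CFA and 78.4, 12.8 and 18.2 RPM after saline. Its groups overlapped, and the log2 fold change of 1.33 ± 0.47 (SE, n = 3 each) did not pass either (adjusted p = 0.912 in edgeR). Leaving out CFA replicate 3 gave 0.62, and leaving out saline replicate 1 gave 2.40.

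Some compact circles were read deeply in 1 rat only. Singled out after its values were seen, a 535 nt circle of chromosome 6 (chr6:4518806-4520635, minus strand) had 587 reads in saline replicate 1 and was listed at 0 in the other 5 libraries. A 395 nt circle of chromosome 10 (chr10:16724062-16725151, minus strand) had 115 reads in CFA replicate 1 and 0 elsewhere. Neither passed (Benjamini-Hochberg adjusted p = 0.9999 each by the quasi-likelihood test of edgeR), and both passed without robust fitting or with the replicate number as a block. Of the 1402 circles tested, 62 were listed in 1 library alone, 90 were at 0 in all CFA libraries and 66 in all saline libraries.

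The study also predicted miRNA binding to its circRNAs. Matches to the seed (bases 2 to 8) were counted here in the ring, across the joint, for 15 of 16 miRNAs with a RefSeq sequence (GRCr8), and miR-124-3p was not searched. Compact circles held sites for miR-29a-3p and miR-125a-5p at a somewhat higher density than wide circles. Both miRNAs are shown with the seed in capitals because they stood apart most in this direction.
miR-29a-3p: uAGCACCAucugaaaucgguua
miR-125a-5p: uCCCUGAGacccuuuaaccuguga
The site TGGTGCT of miR-29a-3p was found in 130 compact circles (5.77%), at 0.157 per kb against 0.107 per kb in wide circles. The site CTCAGGG of miR-125a-5p was found in 103 (4.57%), at 0.125 against 0.0891 per kb. For miR-155-5p, tied to immune activation, 32 compact circles (1.42%) had a site, at 0.0374 against 0.0530 per kb. The remaining miRNAs lay on both sides of equality. Sites of miR-138-5p were slightly denser in compact circles (0.166 against 0.154 per kb). Those of miR-223-3p (0.0597 against 0.0719) and miR-146a-5p (0.0772 against 0.0895) were less dense. More than 1 site for the same miRNA was rare, in 10 compact circles at most (miR-138-5p). The circle novel_circ_0042039 held 1 site each for miR-128-3p and miR-125a-5p, novel_circ_0006907 held none of the 15, and the leading chromosome 11 circle held none either. Densities carry no test and were not matched for GC content, which was higher in compact than in wide circles. A match is a stretch of letters and does not show binding.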

How the data were processed

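Thalamus RNA of 3 CFA and 3 saline rats was sequenced, with groups and replicate numbers taken from the sample titles. According to the labels' protocols poly-T beads were used on total RNA, although a ring has no poly(A) tail, and random hexamers primed the cDNA. In the submitters' processing notes stand DESeq2 1.20.0, featureCounts 1.5.0-p3, StringTie 1.3.3b and HISAT2 2.0.5. No source used here gives the circRNA caller, the genome build or the way the inner structure of the circles was found. The authors deposited a read count per circRNA and library, which all tests use. The authors also deposited RPM values, named tpm in the file headers and without a length term. RPM printed here were worked out anew from each library's own circRNA counts. The lowest count above 0 was 2. The column of CFA replicate 3 starts with another letter than those of the other CFA libraries, and its meaning was not found.

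Positions, lengths and sequences came from the deposited headers, with 1 added to starts. For 44 identifiers listed with 2 entries, 4 of them compact circles, the longer sequence was kept. edgeR 4.0.16 in R 4.3.3 was fitted to circRNAs with at least 10 counts (TMM, robust quasi-likelihood, no covariate). Benjamini-Hochberg adjustment ran over all of them, with a threshold of 0.05. The SE is the log2 fold change over the square root of F. DESeq2 1.42.0, other normalizations and filters, a replicate block, and each library left out were alternatives. The p-values of CFA against saline measure the spread between these 6 rats, and the sign-flip p-values measure agreement between the libraries. Single values per library were compared with exact permutation tests. The scripts were tested on simulated data. Circles named were those past the threshold without overlap of groups (up to 5 per direction, filled to 4 with the smallest p), the 8 most abundant, and the extremes of span and of sequence left out. The planned host gene lists were not analysed, since identifiers carry no gene names. The members and lists were chosen with earlier results of these data known. Chi-square per degree of freedom was at its lowest 7.49 over the library pairs, so none repeated another within sampling noise.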

Additional observations from a re-analysis of the deposited data

How the results depend on the processing

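Of the compact circles, 2 were also called with RLE size factors, library totals alone or no filter (the same 2), 2 in DESeq2 (1 of them shared) and 3 without robust fitting (1 shared). A minimum of 30 counts left 0 calls in edgeR (13 circles had an unadjusted p under 0.05), and filterByExpr left 0 (8 unadjusted). DESeq2 was run with a minimum of 10 counts alone. With the replicate block 5 were called, the 2 among them. Deviations of same-numbered libraries from their group means correlated at 0.023, -0.00039 and -0.075. These correlations were not tested, and the titles do not say that equal numbers pair animals. Leaving out 1 library gave 2 to 5, with novel_circ_0042039 lost without saline replicate 1 or 3, 4 called without CFA replicate 1 and 5 without saline replicate 3. The cause was not tested. Differences in the share of reads and of listed circles kept their direction in every alternative run (0.012 to 0.29 and 0.0079 to 0.21 percentage points, CFA minus saline). With the replicate block they were 0.12 and 0.10. That p stayed above 0.05 was certain in advance. The exact test cannot go below 0.1 with 3 against 3 or below 0.25 with 3 pairs, and leaving out a library does not lower this.

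The log2 ratio of reads per circle, compact to wide, was -0.45. It was 0.35 for circles of 300 to below 400 nt, 0.49 at 250 to below 300 nt, 0.36 at 400 to below 500 nt and 0.25 for circles alone at their locus (these 4 chosen after the data were seen), and -1.97 against single-segment circles. The difference in the share listed, -5.65 percentage points, became 1.69 at 300 to below 400 nt and 2.03 at 250 to below 300 nt, and was -4.13 at 400 to below 500 nt and -12.5 at 500 to below 1000 nt. Circles that share their locus, a set also chosen after the data were seen, kept the sign of both measures (log2 ratio -0.30 and -2.50 points, exact permutation p = 0.0312 each, unadjusted). With exact sign-flip permutation tests it no longer passed with at least 10 counts (-1.47, p = 0.219), against single-segment circles (-2.88, p = 0.188) or for circles alone at their locus (-3.06, p = 0.0625). Without 1 library the ratio was -0.47 to -0.44 and the share -6.11 to -5.17, at the smallest p of 5 libraries, 0.0625 (exact).

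Among named circles, leaving out 1 library turned the sign of 7 that were not called. Log2 fold changes then ranged from -0.068 to 7.59 (293 nt, chromosome 8), -0.049 to 0.068 (425 nt, chromosome 3), -0.077 to 0.34 (501 nt, chromosome 2), -0.40 to 0.029 (360 nt, chromosome 5), -0.19 to 0.47 (440 nt, chromosome 10), -0.44 to 0.049 (380 nt, chromosome 17) and -0.10 to 0.51 (277 nt, chromosome 9). Log2 fold changes had a median SE of 1.77 over the compact circles tested and 0.36 over the 97 above 100 RPM with reads in all libraries.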
